A study of Mus musculus with 6 samples.

Results

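The 10 genes described here are the classical cadherins *Cdh1* (E-cadherin), *Cdh2* (N-cadherin) and *Cdh3* (P-cadherin), the transcription factor genes *Snai1*, *Snai2*, *Twist1*, *Zeb1* and *Zeb2*, and *Vim* (vimentin) and *Fn1* (fibronectin). They were chosen by symbol for their place in adhesion between epithelial cells and in the epithelial-mesenchymal transition (EMT). Each symbol named 1 entry among the 37753 entries with expression values, and all 10 were among the 12461 entries that were expressed highly enough to be tested. Classical cadherins hold neighbouring cells together through calcium-dependent binding outside the cell and are tied to actin by catenins inside it. SNAI, TWIST and ZEB proteins bind E-boxes in DNA, and SNAI and ZEB proteins are known as repressors of the E-cadherin gene. In an EMT, epithelial cells lose E-cadherin and gain vimentin, fibronectin and often N-cadherin. In the normal mammary gland E-cadherin is the main cadherin of luminal cells, while P-cadherin and vimentin are typical of the myoepithelial (basal) layer.

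RNA-seq values were examined for mammary epithelial cells in primary culture (MEC, 3 preparations) and for 3 tumor cell lines (MEKO), with 1 library for each. All donors were of strain C57/Bl6J and carried *Wap-Cre*, a Cre recombinase transgene under the control of a milk protein promoter that is active in lactating glands, where the luminal cells (CK8+) are its target and the basal cells (CK5+) are spared. MEC (genotype WAPCre+) were pooled from 3 to 5 virgin females aged 10 to 12 weeks, were grown on collagen I, and gave RNA as a primary culture close to confluence. MEKO lines (genotype Mapk8KO Mapk9KO Cre+) were grown from mammary tumors of parous mice, were passaged 2 times on collagen I, and gave RNA as established lines on standard dishes; the age of the tumor-bearing mice is not analysed here. The lines are named by their numbers, 199, 233 and 336. Genotype, tumor origin, parity, age of the mice and culture change together between the groups and cannot be told apart. The cells were mixtures in bulk, so fewer cells of a type and less RNA of a gene per cell cannot be told apart either.

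*Mapk8* and *Mapk9*, the genes that encode JNK1 and JNK2, were lower in all MEKO lines than in all MEC libraries. *Mapk8* was at 23.1, 25.1 and 19.2 FPKM (fragments per transcript kilobase, scaled to library size) in MEC 1, 2 and 3 and at 5.93, 3.12 and 1.37 in lines 199, 233 and 336. *Mapk9* was at 24.4, 21.5 and 22.1 in MEC and at 7.62, 3.15 and 3.07 in the lines. Both fell by the test used throughout, limma on log2(FPKM + 1) with Benjamini-Hochberg adjustment over all tested genes (*Mapk8*, adjusted p = 0.0146; *Mapk9*, adjusted p = 0.0122), with log2 fold changes of -2.52 and -2.17. Without any 1 MEC library the fold changes stayed between -2.62 and -2.44 for *Mapk8* and between -2.20 and -2.12 for *Mapk9*, but the adjusted p missed the threshold (up to 0.0762). A gene was called with an adjusted p under 0.05 and a log2 fold change beyond 0.75. Fold changes are MEKO relative to MEC on the log2(FPKM + 1) scale, which understates the change of genes at low levels. As a check of the epithelial label, *Epcam*, which encodes an epithelial adhesion molecule, was at 539, 519 and 549 FPKM in MEC and at 252, 144 and 128 in the lines.

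The members spanned a wide range of levels. FPKM is a value per transcript length, so levels of different genes can be set side by side. In MEC the order of mean FPKM was *Fn1* (381 ± 110, SD, n = 3), *Cdh1* (291 ± 30.3), *Vim* (130 ± 38.9), *Cdh3* (19.4 ± 2.9), *Cdh2* (16.3 ± 1.28), *Snai2* (8.8 ± 2.34), *Snai1* (3.62 ± 0.16), *Zeb2* (1.93 ± 1.24), *Zeb1* (1.46 ± 0.154) and *Twist1* (1.05 ± 0.157). The ranges over libraries overlapped between *Fn1* and *Cdh1*, between *Cdh3* and *Cdh2*, and between *Zeb2* and both *Zeb1* and *Twist1*. The other neighbours in this order did not overlap. Within MEKO the order depended on the line: 9 of 10 members were higher in line 199 than in lines 233 and 336, and several were close to 0 in the latter.

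**Figure D1:**
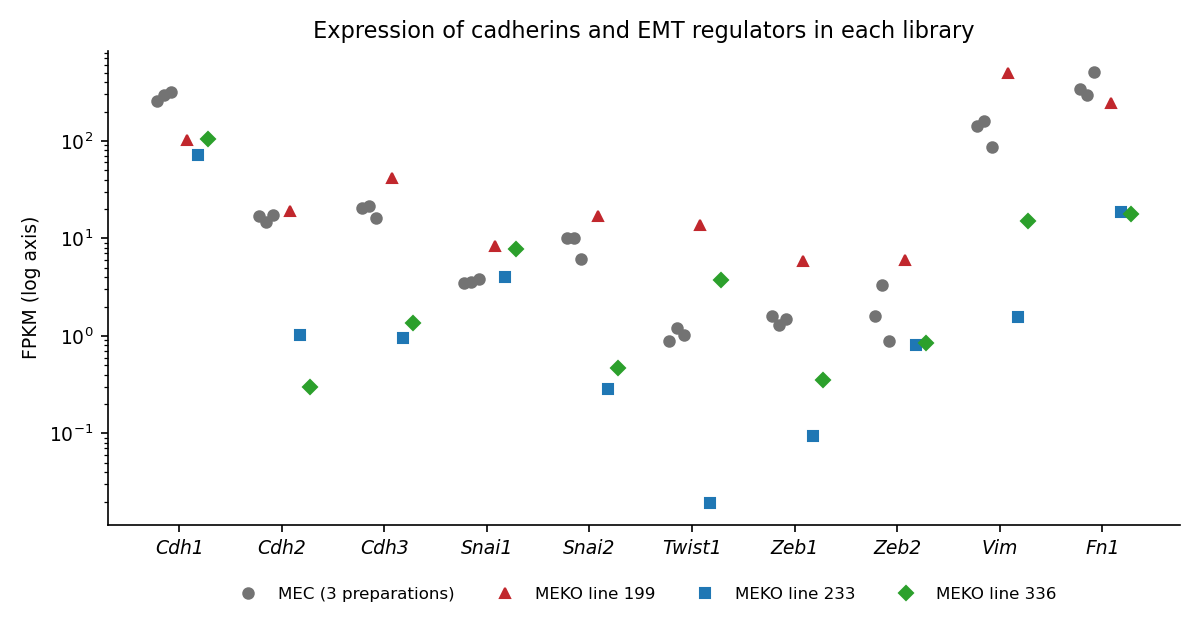
FPKM of the 10 genes in each library, on a log axis, with MEC as grey circles and each MEKO line as its own symbol. *Cdh1* is lower in the 3 lines (71.1 to 104) than in MEC (259 to 319), and line 199 is the highest line for the other 9 genes.

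Promoter sequence from RefSeq (GRCm38.p6) is shown for *Snai1* and *Twist1*. Among the factor genes, these had a window outside annotated exons with a start found in the annotated transcripts. The 250 bases before the transcription start are in lower case, with E-boxes (CANNTG) in capitals. Both windows lie outside annotated exons, *Snai1* at chr2:167537945-167538194 and *Twist1* at chr12:33957421-33957670, both on the plus strand.
Snai1: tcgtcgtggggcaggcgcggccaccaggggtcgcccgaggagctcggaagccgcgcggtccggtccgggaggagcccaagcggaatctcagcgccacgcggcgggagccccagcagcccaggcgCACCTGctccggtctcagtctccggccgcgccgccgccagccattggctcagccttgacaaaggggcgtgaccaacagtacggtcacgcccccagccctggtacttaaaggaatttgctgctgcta
Twist1: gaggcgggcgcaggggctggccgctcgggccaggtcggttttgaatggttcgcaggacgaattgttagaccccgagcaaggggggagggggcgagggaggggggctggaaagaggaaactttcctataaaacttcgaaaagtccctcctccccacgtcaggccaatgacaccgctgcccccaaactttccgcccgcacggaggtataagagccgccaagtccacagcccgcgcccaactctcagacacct
The *Snai1* window holds 1 E-box, a CACCTG that starts 126 bases before the start site, and the *Twist1* window holds none. CACCTG and its reverse complement CAGGTG are the E-box forms that SNAI and ZEB zinc fingers favour, and CANNTG reads the same way on both strands. The 4 windows of *Zeb2* and the window of *Vim* hold no E-box in their 250 bases. Unlike the windows shown, the *Vim* window and most of the *Zeb2* windows overlap annotated exons. The start of the remaining *Zeb2* window was not found in the annotated transcripts. Among all 32851 windows, 66.2% hold a CANNTG and 17.2% hold a CACCTG or CAGGTG in these bases. No window was used here for *Cdh1*, *Cdh2*, *Cdh3*, *Snai2*, *Zeb1* and *Fn1*. A match describes letters in a window and was not tested as a binding site.

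Of the 10 members, *Cdh1* alone was called between MEKO and MEC, and it was lower. The other 9 were not called. Over all tested genes, 2.64% were called higher and 7.26% were called lower. The median log2 fold change was -1.61 over the 10 members and 0.01 over all tested genes. Without adjustment, 3 members had p under 0.05 (*Cdh1*, *Snai1* and *Fn1*), against 28.2% of all tested genes. The same 3 members did not overlap between the groups, with *Snai1* higher and *Cdh1* and *Fn1* lower in MEKO, and 37.2% of all tested genes did not overlap.

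E-cadherin is the adhesion molecule of adherens junctions and a marker of the epithelial state. *Cdh1* (chr8:106603351-106670246, plus strand) was at 259, 294 and 319 FPKM in MEC 1, 2 and 3 and at 102, 71.1 and 104 in lines 199, 233 and 336. All lines were below all MEC libraries, and line 233 was the lowest. *Cdh1* fell by 1.66 on the log2 scale (SE 0.19, 95% interval -2.12 to -1.19; limma, adjusted p = 0.00571). An exact permutation of the 3 and 3 libraries (two-sided) gave p = 0.1, the smallest it can give. The lines kept 35.3%, 24.5% and 35.8% of the MEC mean in the order 199, 233 and 336, so E-cadherin transcript was still abundant in each of them. *Cdh1* was the member that varied least among the lines, with an SD of 0.31 on the log2 scale, and it was called under all 13 alternatives tried (adjusted p from 0.00273 to 0.0393). Luminal markers differed too: the 8 on the list, among them *Krt8*, *Krt18* and *Kit*, summed to between 5743 and 9725 FPKM in MEC and between 738 and 3036 in the lines, 4 of the 7 tested were lower and none was higher, and *Kit* was listed at 0 in lines 199 and 233. The shares called over all tested genes were 7.26% lower and 2.64% higher. The part of the luminal markers in the *Cdh1* result was not tested.

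N-cadherin takes the place of E-cadherin in many cells that undergo EMT. *Cdh2* (chromosome 18) was at 16.9, 14.8 and 17.2 FPKM in MEC and at 19.2, 1.03 and 0.302 in the lines. Line 199 lay just above the MEC libraries, and lines 233 and 336 lay far below them. In the fit *Cdh2* had a log2 fold change of -2.20 (SE 0.98, 95% interval -4.56 to 0.16; limma, adjusted p = 0.203), and the groups overlapped.

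P-cadherin joins myoepithelial cells to each other. *Cdh3* (chr8:106510891-106557297, plus strand), which lies next to *Cdh1* on the chromosome, was at 20.3, 21.7 and 16.1 FPKM in MEC and at 41.8, 0.954 and 1.34 in the lines. Line 199 was at 2.16 times the MEC mean, and lines 233 and 336 were at 4.93% and 6.93% of it. Its log2 fold change was -1.80 (SE 1.15, 95% interval -4.58 to 0.97; limma, adjusted p = 0.35). The neighbouring genes *Cdh1* and *Cdh3* thus differed in their order among the lines: line 199 was level with line 336 for *Cdh1* (102 and 104 FPKM) and was the highest by far for *Cdh3*.

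The balance among the 3 cadherins differed between line 199 and the other lines. E-cadherin made up 87.4%, 89% and 90.5% of the summed classical cadherin FPKM in MEC and 62.7%, 97.3% and 98.4% in lines 199, 233 and 336. The N-cadherin share was 5.7%, 4.48% and 4.89% in MEC and 11.7%, 1.41% and 0.285% in the lines, and the P-cadherin share was 6.85%, 6.57% and 4.58% in MEC and 25.6%, 1.31% and 1.27% in the lines. Lines 233 and 336 lay above every MEC library in the E-cadherin share and line 199 lay below, so the groups did not separate (difference of means -2.83 percentage points; exact permutation test, two-sided, p = 1). This difference turned to 8.89 points without line 199, and was -8.4 and -8.99 without lines 233 and 336. The sum of the 3 cadherins was 296, 331 and 352 FPKM in MEC and 163, 73.1 and 106 in the lines, without overlap (p = 0.1 by exact permutation, two-sided, the lowest value that 6 libraries allow).

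**Figure D2:**
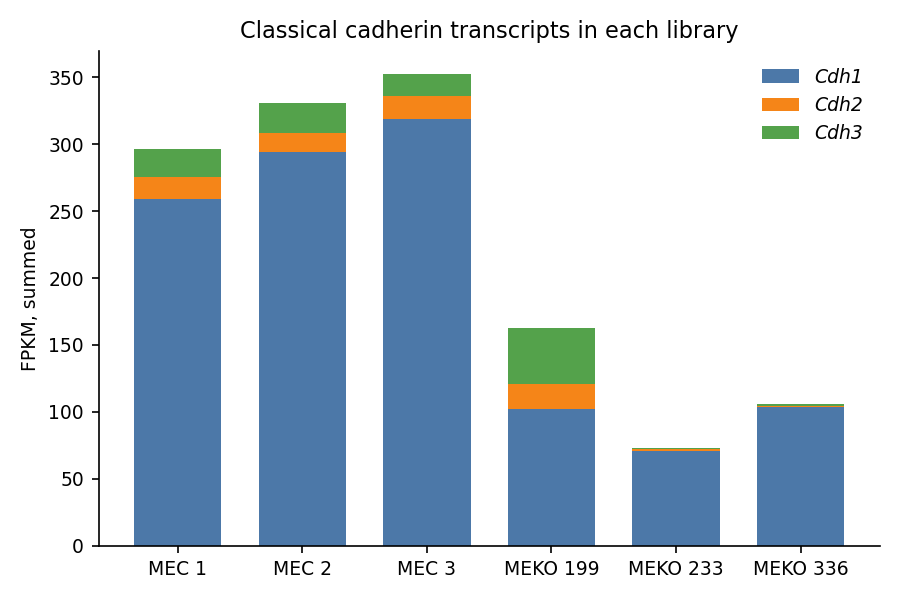
Summed FPKM of *Cdh1*, *Cdh2* and *Cdh3* in each library, stacked, on a linear axis from 0. The sum is between 296 and 352 in MEC and between 73.1 and 163 in the MEKO lines, and *Cdh2* and *Cdh3* are a visible share of the sum in line 199 but not in lines 233 and 336.

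Snail and Slug, the products of *Snai1* and *Snai2*, are zinc finger repressors of epithelial genes. *Snai1* (chr2:167538195-167542814, plus strand) was at 3.5, 3.56 and 3.8 FPKM in MEC and at 8.42, 4.05 and 7.8 in the lines. Every line exceeded all MEC libraries, line 233 by a small margin. Its log2 fold change was 0.70 (SE 0.27, 95% interval 0.04 to 1.35; limma, adjusted p = 0.161), so *Snai1* was not called. *Snai2* (chr16:14705852-14709385, plus strand) was at 10.2, 10.1 and 6.09 FPKM in MEC and at 16.9, 0.283 and 0.467 in the lines. Lines 233 and 336 held 3.21% and 5.3% of the MEC mean, and line 199 held 192%. The log2 fold change of *Snai2* was -1.57 (SE 1.00, 95% interval -3.99 to 0.85; limma, adjusted p = 0.349).

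*Snai2* was therefore the more abundant of the pair in MEC and in line 199, and *Snai1* was the more abundant in lines 233 and 336. The log2 ratio of *Snai2* to *Snai1* FPKM was 1.54, 1.51 and 0.68 in MEC and 1.00, -3.84 and -4.06 in lines 199, 233 and 336. Line 199 lay inside the MEC range, and the groups overlapped (exact permutation test, two-sided, p = 0.2).

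*Twist1* encodes a basic helix-loop-helix factor of the mesoderm and neural crest. It lies at chr12:33957671-33959829 on the plus strand and was at 0.895, 1.21 and 1.03 FPKM in MEC and at 13.7, 0.0193 and 3.75 in the lines. Lines 199 and 336 were above the MEC range and line 233 was near 0. The log2 fold change was 1.02 (SE 0.90, 95% interval -1.15 to 3.20; limma, adjusted p = 0.492). *Twist1* and *Snai1* were the members for which line 336 exceeded every MEC library.

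ZEB1 and ZEB2 are zinc finger and homeodomain repressors that act on E-boxes in pairs. *Zeb1* (chromosome 18) was at 1.59, 1.29 and 1.5 FPKM in MEC and at 5.89, 0.095 and 0.356 in the lines. *Zeb2* (chr2:44983632-45117395, minus strand) was at 1.59, 3.3 and 0.884 FPKM in MEC and at 6.07, 0.81 and 0.842 in the lines. Line 199 was the highest of all 6 libraries for both genes, and lines 233 and 336 were the lowest. The log2 fold changes were -0.18 for *Zeb1* (SE 0.69; limma, adjusted p = 0.889) and 0.06 for *Zeb2* (SE 0.61; limma, adjusted p = 0.966), and the sign of both turned under some alternatives. *Zeb2* was also uneven within MEC, with an SD of 0.60 on the log2 scale. The antisense gene *Zeb2os* shares 653 exonic bases with *Zeb2* and *Gm10125* shares 198 with *Zeb1*, on the opposite strand, and the sources used here do not say whether strand was kept, so reads of the overlap could belong to either gene.

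Vimentin forms the intermediate filaments of mesenchymal and myoepithelial cells. *Vim* (chr2:13573927-13582826, plus strand) was at 143, 160 and 86.2 FPKM in MEC and at 496, 1.56 and 15 in the lines. Line 199 was at 3.81 times the MEC mean, line 336 was at 11.5% of it and line 233 at 1.2%. On the log2(FPKM + 1) scale *Vim* differed more among the lines than any other member (SD 3.86), and 99.7% of tested genes had a smaller SD among the lines. As a plain FPKM ratio of highest to lowest line, *Twist1* (712) exceeded *Vim* (319), with its lowest line near 0. The log2 fold change was -2.21 (SE 1.78, 95% interval -6.50 to 2.07; limma, adjusted p = 0.452).

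Fibronectin is a glycoprotein of the extracellular matrix that binds integrins. *Fn1* (chr1:71585520-71653200, minus strand) was at 344, 294 and 505 FPKM in MEC and at 246, 18.5 and 17.7 in the lines. All lines were below all MEC libraries, line 199 by a small margin and lines 233 and 336 at 4.85% and 4.64% of the MEC mean. The log2 fold change was -3.05 (SE 1.00, 95% interval -5.46 to -0.65), and it missed the threshold after adjustment (limma, adjusted p = 0.109).

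E-cadherin and vimentin are often read together as a scale from epithelial to mesenchymal. The log2 ratio of *Cdh1* to *Vim* FPKM was 0.85, 0.88 and 1.89 in MEC and -2.28, 5.51 and 2.80 in lines 199, 233 and 336. Line 199 was the library with more *Vim* than *Cdh1*, and lines 233 and 336 lay above the MEC range. The mean ratio was 1.2 ± 0.591 in MEC and 2.01 ± 3.95 in MEKO (SD, n = 3 each; exact permutation test, two-sided, p = 0.7). The difference of 0.81 between these means turned to -0.94 without line 233 and was 2.95 without line 199 and 0.42 without line 336.

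The lines were then set one by one beside the MEC libraries. A line was counted as above or below MEC where it lay outside the range of the 3 MEC libraries by at least 1 on the log2 scale. In line 199, 3 members were above (*Twist1*, *Zeb1* and *Vim*) and 1 was below (*Cdh1*), against 4.99% and 9.22% of all tested genes. In line 233, 0 members were above and 7 were below (all but *Snai1*, *Twist1* and *Zeb2*), against 4.62% and 11.0%. In line 336, 1 member was above (*Twist1*) and 6 were below (*Cdh1*, *Cdh2*, *Cdh3*, *Snai2*, *Vim* and *Fn1*), against 4.70% and 11.5%. *Twist1* and *Zeb2* could not count as below in any line. Their lowest MEC values (0.895 and 0.884 FPKM) lie less than 1 above the smallest value that log2(FPKM + 1) can take. In line 233 *Twist1* was at 1.85% of the MEC mean. The median difference of the members from the MEC mean was 1.05, -2.46 and -2.09 in lines 199, 233 and 336, and over all tested genes it was 0.01, 0.00 and 0.02. Each line is 1 library, so these differences have no replicate check.

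**Figure D3:**
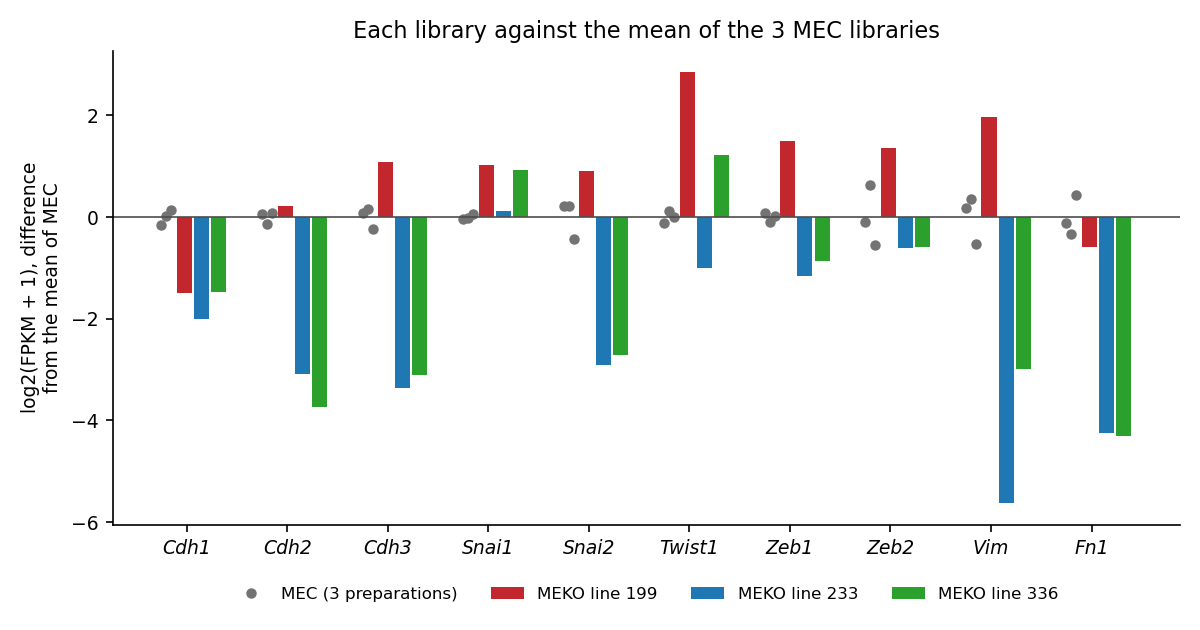
Difference of each library from the mean of the 3 MEC libraries on the log2(FPKM + 1) scale, with MEC libraries as grey points and the MEKO lines as bars from 0. For *Cdh2*, *Cdh3*, *Snai2*, *Zeb1*, *Zeb2* and *Vim* line 199 lies above 0 and lines 233 and 336 lie below it, and *Cdh1* lies between -2.01 and -1.47 in all 3 lines.

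Line 199 was above both other lines by at least 1 on the log2 scale for 8 of 10 members (all but *Cdh1* and *Snai1*), against 5.83% of all tested genes. For lines 233 and 336 the corresponding count was 0 of 10, against 2.95% and 2.92%. The median SD of the members was 2.03 on the log2 scale within MEKO and 0.18 within MEC, and over all tested genes it was 0.33 and 0.18. Between 2 lines, the median absolute difference of the members was 3.49 for lines 199 and 233, 2.98 for lines 199 and 336, and 0.43 for lines 233 and 336. For all tested genes these medians were 0.40, 0.43 and 0.31. Within MEC the members differed by medians of 0.18, 0.31 and 0.31 between preparations, against 0.12, 0.25 and 0.29 for all tested genes. The mice are listed in the study's source data with adenosquamous carcinoma for 199, both adenosquamous carcinoma and adenocarcinoma for 233, and adenocarcinoma for 336, paired with the lines here by number alone.

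**Figure D4:**
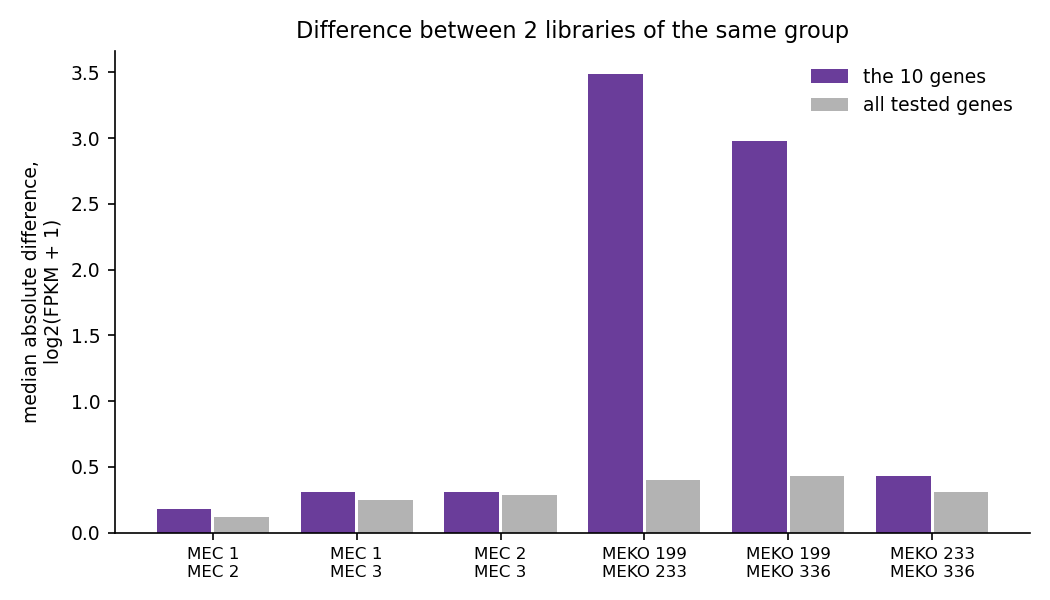
Median absolute difference on the log2(FPKM + 1) scale between 2 libraries of the same group, for the 10 genes and for all 12461 tested genes, with bars from 0. The pairs that hold line 199 stand at 3.49 and 2.98 for the 10 genes, and the pair of lines 233 and 336 stands at 0.43.

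Line 199 was the highest line for 9 of 10 members, so the fit without it is given here. Where line 199 stands far above the others, leaving it out lowers the MEKO mean and narrows the spread. More lower calls then follow from the choice of line, here and in the lists below, and are no separate result. Without line 199, 7 of 10 members were called lower (*Cdh1*, *Cdh2*, *Cdh3*, *Snai2*, *Zeb1*, *Vim* and *Fn1*), against 10.8% of all tested genes called lower in that fit. With sample weights, 5 members were called lower (*Cdh1*, *Cdh2*, *Cdh3*, *Snai2* and *Fn1*), against 11.1%. That fit weights the same libraries unequally and is no independent check. Without line 233, *Snai1* was called higher beside *Cdh1* lower, against 1.89% of all tested genes called higher. *Twist1* and *Zeb2* were not called under any alternative.

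Markers of the basal layer followed a like order among the lines. The 9 myoepithelial markers, among them *Krt5*, *Krt14* and *Acta2*, summed to 2561, 2865 and 1570 FPKM in MEC, to 2277 in line 199, and to 10.8 and 58.7 in lines 233 and 336. *Krt5*, a basal keratin, was at 608, 1.33 and 15.3 FPKM in lines 199, 233 and 336, and at 435, 339 and 201 in MEC. *Krt14*, its partner, was at 521, 7.36 and 24 in the lines and at 460, 393 and 289 in MEC. Of the 9 markers, 3 were called lower in MEKO and 0 higher (*Myh11*, -4.95; *Oxtr*, -3.30; *Mylk*, -3.09), genes of contraction and the oxytocin receptor that were below 1 FPKM in all 3 lines, line 199 included. *Acta2*, the smooth muscle actin, was at 719 FPKM in line 199 and at 1.13 and 1.29 in lines 233 and 336. None of the 9 was at 0 in any MEKO line. With all libraries, 7.26% of all tested genes were called lower and 2.64% higher. Without line 199, and also with sample weights, 8 of the 9 were called lower, against 10.8% and 11.1% of all tested genes. *Oxtr* lost its call without MEC 1, MEC 2, line 233 or line 336. Their part in the member values was not tested.

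Fibroblast markers were uneven in line 199. The 12 markers summed to 396, 490 and 565 FPKM in MEC, 1441 in line 199, and 3.1 and 4.57 in lines 233 and 336. *Col1a1*, a chain of type I collagen, was at 600 FPKM in line 199 and between 44.2 and 74.7 in MEC. *Col1a2*, the other chain, was at 408 in line 199 and between 28.7 and 39.3 in MEC. The small proteoglycan gene *Dcn* was called lower (-2.30; limma, adjusted p = 0.00821) and stood at 0.311 FPKM in line 199, where *Lum*, *Dpt* and *Pi16*, also fibroblast genes, stood at 0.0264, 0.012 and 0.0417. Lines 233 and 336 held *Lum*, *Dpt* and *Pi16* listed at 0. Leukocyte markers summed to between 22.7 and 43.4 FPKM in MEC and between 0.969 and 24.9 in the lines, with *Adgre1* and *Cd3e* listed at 0 in all lines and the sum of line 336 made up mostly of *Cd68* (23.5). Endothelial markers summed to between 2.35 and 23.3 FPKM in MEC and between 0.175 and 2.05 in the lines, with *Cldn5* listed at 0 in all lines. Of the tested markers, 1 of 8 for fibroblasts, 1 of 3 for leukocytes (*Lyz2*, -4.51) and 0 of 3 for endothelium were called, all lower. The share called lower over all tested genes was 7.26%. Without line 199, 7 of the 8 fibroblast markers were called lower, and with sample weights 4 were. These fits called 10.8% and 11.1% of all tested genes lower. Without MEC 3, and also with sample weights, 2 of the 3 endothelial markers were called lower. Without line 336, 2 of the 3 leukocyte markers were. Over all 12461 tested genes, 457 were called lower without MEC 3 and 673 without line 336. The part of these cells in the member values was not tested.

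Other cadherins were mostly low. Of 19 further cadherin genes, 18 were in the table, 6 were listed at 0 in every library and 5 were tested. Of these 5, 0 were called higher and 1 was called lower, against 2.64% and 7.26% of all tested genes. *Cdh10*, a type II cadherin, was at 4.72, 2.93 and 5.29 FPKM in MEC and below 0.1 in every line (log2 fold change -2.34; limma, adjusted p = 0.00484). *Cdh11*, a type II cadherin of mesenchymal cells named here after its values were seen, was at 4.46, 5.26 and 5.43 in MEC and at 17, 0.144 and 0.0747 in the lines, with line 199 the highest as for *Cdh2* and *Cdh3*.

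The partners of cadherins at the junction were also examined. Of 18 catenin, nectin and linker genes, 15 were tested, with 0 higher and 4 lower in MEKO, against 2.64% and 7.26% of all tested genes. The median log2 fold change of the 15 was -0.39. *Nectin4* and *Nectin3*, immunoglobulin-like adhesion molecules of the junction, were lower, with log2 fold changes of -2.23 and -1.51 (limma, adjusted p = 0.00273 and 0.0475). *Eplin* (*Lima1*), whose product links the cadherin complex to actin, fell by 1.91 (limma, adjusted p = 0.0324). *Ctnnd1*, which encodes the p120 catenin that keeps cadherins at the cell surface, was the remaining call and fell by 0.98, from 162, 182 and 194 FPKM in MEC to 106, 69.3 and 99.2 in the lines (limma, adjusted p = 0.0303). *Ctnna1* and *Ctnnb1*, the alpha and beta catenins, had log2 fold changes of -0.07 and -0.14 and were not called. The *Nectin4* call held in all 13 alternatives, and without any 1 MEC library or line 336 it was the call left of the 4. *Nectin3* kept its call in 4 of 13. Here *Ctnnd1*, *Ctnna1* and *Ctnnb1* are named after their values were seen.

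Among other transcription regulators listed for EMT, whether they drive or oppose it, 3 of 11 tested were higher and 0 were lower. The shares over all tested genes were 2.64% and 7.26%. The median log2 fold change of the 11 was 0.60. This median includes *Id1*, *Id2* and *Id3*, named after their values were seen (1.56, 1.16 and 0.25, none called). *Hmga2*, an architectural chromatin factor of embryonic tissue, rose by 5.03 on the log2 scale (SE 0.24; limma, adjusted p = 0.000645), from 2.3, 1.99 and 1.21 FPKM in MEC to 83.7, 116 and 75.8 in the lines. *Prrx2*, a mesenchymal homeobox gene, rose by 3.76, from 0.478, 0.64 and 1.45 FPKM to 13.5, 30.3 and 31.7 (limma, adjusted p = 0.00371). Both calls held in all 13 alternatives, and without line 199 the list had 5 higher and 1 lower. That fit called 546 of the 12461 tested genes higher and 1340 lower. *Hmga2* and *Prrx2* were high in all lines, where the members *Twist1*, *Zeb1* and *Zeb2* were not. *Twist2* and *Prrx1*, relatives of *Twist1* and *Prrx2* named after their values were seen, followed line 199 instead: *Twist2* was at 9.29, 0.0922 and 0.862 FPKM in the lines and *Prrx1* at 15.4, 0.0415 and 0.0719.

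Of 16 genes listed as regulators of the epithelial state, whether they hold or oppose it, 1 was called higher and 3 were called lower. The shares over all tested genes were 2.64% and 7.26%. The median log2 fold change of the 16 was -0.30. *Klf4*, a zinc finger factor of epithelial differentiation, rose by 1.22 (limma, adjusted p = 0.0487), a call kept in 3 of 13 alternatives and lost, among others, without each MEC library, line 199 or line 233 (adjusted p up to 0.164). *Elf5*, *Gata3* and *Foxa1*, factors of the luminal lineage, were lower, with log2 fold changes of -5.01, -2.53 and -2.49 (limma, adjusted p = 0.000645, 0.0435 and 0.0198). The *Gata3* entry is joined with *9230102O04Rik* in the table. *Esrp1*, a splicing factor of epithelial cells, and *Grhl2*, a factor that maintains the *Cdh1* gene, are named after their values were seen. *Esrp1* was at 59.3, 55.2 and 57.9 FPKM in MEC and at 53.4, 41.7 and 45.9 in the lines, and *Grhl2* at 15.2, 15.8 and 17.6 in MEC and at 15, 22.5 and 16.4 in the lines, with no call for either (log2 fold change -0.29 and 0.12). The *Elf5* call held in all 13 alternatives, while *Gata3* kept it in 6 and *Foxa1* in 10, both losing it without MEC 1, MEC 2 or line 233, and *Gata3* also without MEC 3.

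Of 18 epithelial genes described in the field as targets of SNAI or ZEB repressors, 0 were called higher and 4 were called lower. The shares over all tested genes were 2.64% and 7.26%. The median log2 fold change of the 18 was -0.55. *Cldn1*, a claudin of tight junctions, fell by 5.10 on the log2 scale, from 66.9, 82.3 and 58.3 FPKM in MEC to 0.446, 1.51 and 1.3 in the lines (limma, adjusted p = 0.000715). *Muc1*, an apical mucin, fell by 2.94 (limma, adjusted p = 0.04), and *Epcam* fell by 1.68 (limma, adjusted p = 0.0154). *Pkp2*, a desmosome plaque gene, was the remaining call and fell by 1.24. Without any 1 MEC library, *Cldn1* was the call left of the 4. In the order 199, 233 and 336, the median difference of these 18 genes from the MEC mean was -0.78, -0.38 and -0.17.

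The mesenchymal effectors also differed among the lines, in a list that shares *Acta2* with the myoepithelial markers and *Col1a1* with the fibroblast markers above. Of 26 tested genes, 1 was called higher and 6 were called lower, with a median log2 fold change of -1.33. The shares called over all tested genes were 2.64% higher and 7.26% lower. *Axl*, a receptor tyrosine kinase, rose by 1.37, from 93.7, 104 and 65.5 FPKM in MEC to 188, 282 and 212 in the lines (limma, adjusted p = 0.0197), a call lost without any 1 MEC library or line 336 (adjusted p up to 0.0791). *Mmp9*, a gelatinase, fell by 5.20, *Tpm2*, a tropomyosin of contractile cells, fell by 3.88, and *Itgb3*, an integrin subunit, fell by 3.69 (limma, adjusted p = 0.011, 0.0379 and 0.00447). The other lower calls were *Tnc*, *Itgb1* and *Tpm1*, a matrix protein, an integrin subunit and a tropomyosin. The 6 lower calls became 1, 1 and 3 without MEC 1, 2 and 3. They became 16, 2 and 3 without lines 199, 233 and 336, and 10 with sample weights. Of all tested genes, 10.8% were called lower without line 199 and 11.1% with sample weights. *Itgb3* was called in all 13 alternatives. Line 199 was above both other lines by at least 1 on the log2 scale for 19 of the 26, against the 5.83% of all tested genes given above. Relative to the MEC mean, their median difference was 0.40 for line 199, -2.43 for line 233 and -2.20 for line 336. Of the 91 genes tested over these 6 lists, 5 were called higher and 18 lower, 23 in all. This count was 7, 7 and 12 without MEC 1, 2 and 3 and 39 without line 199. The same fits called 300, 336, 560 and 1886 of the 12461 tested genes.

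**Figure D5:**
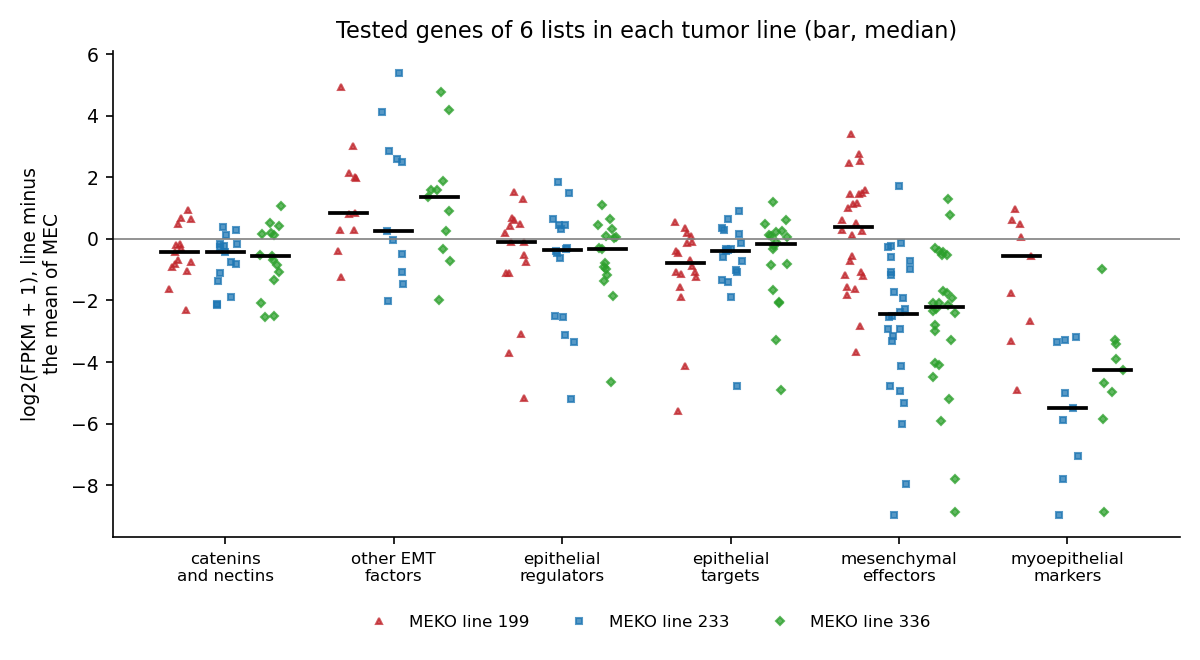
Difference of each MEKO line from the mean of MEC on the log2(FPKM + 1) scale for the tested genes of 5 of these lists and of the myoepithelial markers, 1 point per gene, with the median as a black bar. Medians of the mesenchymal effectors are 0.40, -2.43 and -2.20 and of the myoepithelial markers -0.56, -5.49 and -4.25 in lines 199, 233 and 336, while those of the catenins and nectins lie between -0.55 and -0.42.

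The genes whose pattern over the 6 libraries was most like that of each cadherin, *Vim* and *Fn1* were found by Pearson's r of log2(FPKM + 1) among 4347 tested genes with an SD of at least 0.5. These values describe 6 libraries in which the lines stand apart, and they carry no test. For *Cdh1* they were *Msrb1* (r = 0.9973), *Khdrbs3* (0.9972) and *Kif1b* (0.9972). For *Cdh2* they were *Pdpn* (0.9983), *Fam101b* (0.9978) and *Leprel4* (0.9970). *Pdpn*, which encodes the membrane mucin podoplanin, was at 36.6, 32.9 and 30.2 FPKM in MEC and at 43.9, 1.15 and 0.209 in the lines. For *Cdh3* they were *Bgn* (0.9978), *Gm5864* (0.9977) and *Col5a2* (0.9975), of which *Bgn* and *Col5a2* encode a matrix proteoglycan and a collagen chain. *Bgn* was at 105, 149 and 79 FPKM in MEC and at 498, 1.01 and 0.905 in the lines. For *Vim* they were *Itga5* (0.9970), *Glipr2* (0.9957) and *Sdc1* (0.9917). *Itga5*, a subunit of the fibronectin receptor, was at 36.4, 43.9 and 22.6 FPKM in MEC and at 76.1, 2.42 and 8.98 in the lines. For *Fn1* they were *Grb10* (0.9970), *Tmem154* (0.9968) and *Apol7d* (0.9968), and *Apol7d* lies antisense to *Fn1* with 292 shared exonic bases, so reads of the overlap could belong to either gene.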

How the data were processed

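The authors sequenced RNA of 3 MEC preparations and 3 MEKO lines. Per the labels and the study's methods, reads were trimmed, aligned to GRCm38 with Bowtie2 and TopHat2 2.0.14, and quantified with Cufflinks 2.2.1. The deposited values are FPKM, normalized by the authors for length and library size; read depth is unknown, so no counting interval or floor was computed. Summed FPKM ranged from 557991 to 638365 per library.

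Each symbol was matched to its entry. Entries with a mean FPKM of at least 1 were compared by limma (3.58.1, in R 4.3.3), fitted to log2(FPKM + 1) with a mean-variance trend. The fit was run on simulated data in which both groups had the spread of MEC. That check does not cover the wider spread among the MEKO lines. The authors' Cuffdiff test needs reads and was not repeated. Calls used an adjusted p under 0.05 and a log2 fold change beyond 0.75. Positions came from GENCODE M21. The labels give no batch or date. Replicates are separate preparations or lines.

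The members, gene lists and tests were chosen with earlier results of these data known, and the comparison of lines with each other was added after values were seen. Named genes were all members, the 3 called genes with the largest change per list and direction, the 3 most alike genes, and *Mapk8* and *Mapk9*. A gene that this rule also names is not reported here. Luminal list calls were *Krt19*, *Elf5*, *Kit* and *Krt8*.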

Additional observations from a re-analysis of the deposited data

How the results depend on the processing

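The *Cdh1* call was the same under all 13 alternatives (pseudocount of 0.1, no expression filter, filter at a mean FPKM of 5, quantile normalization, upper-quartile scaling, no trend, sample weights, each library left out). Of 127 member fold changes under alternatives, 109 kept their direction and call, 11 gained a call and 7 turned sign. *Zeb1* turned to 0.07 with quantile normalization, 0.31 without line 233 and 0.16 without line 336, within -1.01 to 0.31 with a library left out. *Zeb2* turned to -0.03 with a pseudocount of 0.1, -0.25 with sample weights, -0.22 without MEC 3 and -0.60 without line 199, within -0.60 to 0.39. *Twist1*, *Zeb1* and *Zeb2* fell under the filter at 5 and have no value there. Called members numbered 1, 5 with sample weights (all lower), and 1 to 7 with a library left out (0 to 1 higher, 1 to 7 lower). Over all genes, 1234 calls (329 higher, 905 lower) became 738 with the filter at 5 (501 lower), 1978 with sample weights (600 higher, 1378 lower), and 300 to 1886 with a library left out (49 to 546 higher, 251 to 1340 lower). The 23 list genes called (5 higher, 18 lower) became 14 without a filter (10 lower), 3 higher with the filter at 5, and 7 to 39 with a library left out (2 to 7 higher, 5 to 32 lower). The lowest counts came without 1 MEC library (300, 336 and 560 genes; 7, 7 and 12 list genes) and the highest without line 199. *Mapk8* and *Mapk9* lost their calls, not their size, without any 1 MEC library. The cause was not tested. The median over all genes moved to between -0.03 and 0.09 with scaling. The difference in cadherin share (-2.83) ranged from -8.99 to 8.89 and that in the log2 *Cdh1* to *Vim* ratio (0.81) from -0.94 to 2.95 with a library left out, both turning sign. No paired analysis was possible because MEC were pools of virgin mice and the lines came from tumors of other, parous mice. With unknown depth, values near 0 FPKM are the least certain.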
